A study of Mus musculus with 2 samples.

Results

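The 39 ribosome biogenesis factors described here are nucleolar proteins, RNA polymerase I subunits and rRNA processing factors of the mouse, chosen by name and found in the gene tables through their Ensembl identifiers. All 39 were found among the 43346 Ensembl genes of the tables, of which 21474 are protein coding. Their levels were not part of the rule of choice, but the choice was made with earlier results of these data known. The cells were G1E-ER4, an immortalized erythroid line from a male mouse, labelled postnatal and 0 day old. It descends from Gata1-null G1E cells and carries GATA1 fused to the ligand-binding domain of the estrogen receptor, so that estradiol (E2) switches GATA1 on and starts erythroid differentiation. Polyadenylated RNA of E2-treated cells was sequenced in paired ends from 2 libraries, biological replicates 1 and 2, which form the only group. Both cite the same biosample record, so the spread between them may be technical. The model is 1 line, the dose and duration of E2 were not given in these sources, and no untreated or Gata1-null cells were analysed here, so no condition was compared and no p-value is given.

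Ribosomes are assembled in the nucleolus. RNA polymerase I transcribes a long precursor rRNA there, small nucleolar RNAs (snoRNAs) guide enzymes that methylate it or turn uridines into pseudouridines, and assembly factors cut and fold it around ribosomal proteins into a small and a large subunit. Growing progenitors make many ribosomes, and maturing erythroid cells lose their nucleoli. Inherited defects of ribosome production often show first as anaemia.

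Depth was 68901065 estimated counts for replicate 1 and 51923117 for replicate 2. The erythroid label held in both libraries: 10 of 10 erythroid markers reached 1 TPM (transcripts scaled for length and depth) or more, with a summed level of 17131 TPM in replicate 1, against 19558 in replicate 2. Of 19 markers of other cell types, 1 did, Itga2b, at 18.2 TPM in replicate 1, against 29.3 in replicate 2. Summed over those 19, the level was 20.6 TPM in replicate 1, against 32.8 in replicate 2.

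All 39 factors were detected at 1 TPM or more in both libraries, against 8376 of 21474 protein-coding genes, or 39%. Both libraries showed at least 10 TPM for 33 of 39, against 24.5% of protein-coding genes. Such a list of housekeeping genes is chosen for known function, so the difference describes the list and no test was made of it. The median factor averaged 69.5 TPM over the libraries (55.8 TPM in replicate 1, against 82.3 in replicate 2), and the median detected protein-coding gene 20.5 TPM. Of the factors, 32 lay above that gene. Means ran from 1.46 TPM for Nip7 to 2621 TPM for Ncl, a 1789-fold range, with 15 factors at 100 TPM or more, 20 between 10 and 100 TPM, and 4 below 10 TPM. In bulk RNA, fewer cells with a transcript and less of it per cell cannot be told apart.

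Gene TPM here is the sum over transcript models, each divided by its own length, so short models weigh heavily. A second level, chosen after the data were seen, keeps only models that GENCODE classes as protein coding and is called coding TPM below. It too can rest on short models. In Ncl, the model Ncl-203, of 661 bases, gave 118 of 147 coding TPM in replicate 1 and 69.3 of 82.4 in replicate 2. In Nop58, the model Nop58-206, of 638 bases, gave 38.0 of 56.0 in replicate 1 and 40.8 of 70.8 in replicate 2. By coding TPM the median factor was at 56.0 (46.0 in replicate 1 and 70.8 in replicate 2), the median detected coding gene was at 13.7, and 30 of 39 factors lay above it. Both are given for the factors whose values differ most between them.

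**Figure D1:**
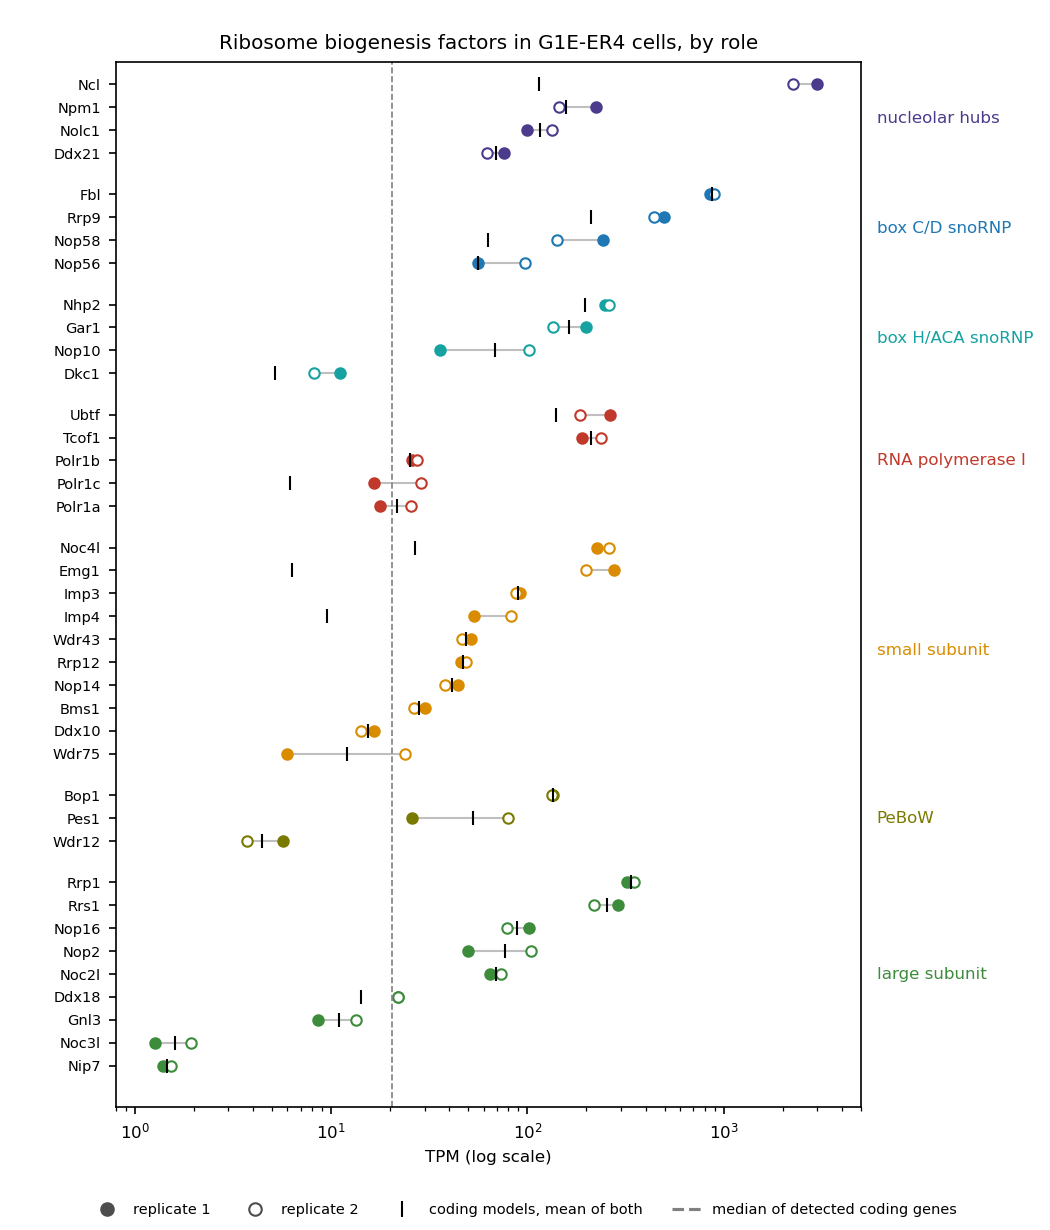
Level of each of the 39 factors in TPM on a log scale, by role, in replicate 1 (filled) and replicate 2 (open), with the mean coding TPM of both libraries as a black tick and the median detected coding gene, 20.5 TPM, as a dashed line. Most pairs of points lie close together, Pes1, Nop10 and Wdr75 are wide apart, and the tick of Ncl, Emg1, Noc4l and Imp4 lies far below their points.

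Of the 4 nucleolar hub proteins, Ncl had the highest gene TPM of all 39 factors, and Ddx21 stood at the median of the list by mean gene TPM. Ncl, nucleolin, an RNA-binding protein of early pre-rRNA processing, stood at 2987 TPM in replicate 1, against 2255 in replicate 2. It made up 37.8% of the summed TPM of all 39 factors in replicate 1 and 31.8% in replicate 2, and it also had the most counts of any factor, 110376 in replicate 1 and 65356 in replicate 2. Its coding TPM was far lower, 147 in replicate 1 and 82.4 in replicate 2. That level leaves out the models that took most Ncl counts, which are described below. Npm1, nucleophosmin, a nucleolar chaperone, had 223 TPM in replicate 1, against 145 in replicate 2. So the order of these 2 genes depends on the models counted: Ncl stood 13.4-fold above Npm1 in replicate 1 and 15.5-fold above it in replicate 2 by gene TPM, but at 0.773 times its level in replicate 1 and 0.668 times in replicate 2 by coding TPM. Nolc1, a scaffold that binds snoRNPs (snoRNA-protein particles), had 99.1 TPM in replicate 1, against 134 in replicate 2. Ddx21, an RNA helicase of rRNA transcription and processing, had 76.3 TPM in replicate 1, against 62.6 in replicate 2. Nolc1 was the only 1 of these 4 with the higher value in replicate 2.

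The box C/D snoRNP proteins carry out rRNA methylation and had the highest median of any role, 330.4 TPM (138 by coding TPM). Fbl, fibrillarin, the methyltransferase itself, was the factor with the highest coding TPM, and its single model is coding. It had 853 TPM in replicate 1, against 892 in replicate 2. Its partners in the same particle were lower. Nop56 had 55.8 TPM in replicate 1, against 97.4 in replicate 2, and by coding TPM 37.4 in replicate 1 and 74.6 in replicate 2. Nop58 had 243 TPM in replicate 1, against 141 in replicate 2, and by coding TPM 56.0 in replicate 1 and 70.8 in replicate 2. By gene TPM, Fbl exceeded Nop56 15.3-fold in replicate 1 and 9.16-fold in replicate 2, and Nop58 3.51-fold in replicate 1 and 6.34-fold in replicate 2. By coding TPM, it exceeded Nop56 22.8-fold in replicate 1 and 11.96-fold in replicate 2, and Nop58 15.2-fold in replicate 1 and 12.6-fold in replicate 2. Rrp9, a protein particular to the U3 snoRNP, which acts in small subunit processing, had 496 TPM in replicate 1, against 442 in replicate 2, with coding TPM of 237 in replicate 1 and 186 in replicate 2.

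The box H/ACA proteins bind the snoRNAs that guide pseudouridylation. They were very unequal, with a median of 118 TPM. Dkc1, dyskerin, the pseudouridine synthase, was the lowest, at 11.1 TPM in replicate 1, against 8.17 in replicate 2, and by coding TPM 6.25 in replicate 1 and 4.14 in replicate 2. Nhp2, a core protein that binds the guide RNA, had 249 TPM in replicate 1, against 260.3 in replicate 2. Gar1, which joins as the particle matures, had 199 TPM in replicate 1, against 135 in replicate 2. Nop10, the smallest core protein, had 35.9 TPM in replicate 1, against 102 in replicate 2. The enzyme was therefore below every partner in both libraries: Nhp2 exceeded it 22.5-fold in replicate 1 and 31.9-fold in replicate 2, Gar1 18.0-fold in replicate 1 and 16.6-fold in replicate 2, and Nop10 3.25-fold in replicate 1 and 12.4-fold in replicate 2. By coding TPM the excess was wider for all 3 partners in both libraries. Whether the transcript levels carry over to proteins was not measured.

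Some of the factors share loci with snoRNA genes. Inside 6 of the 39 factors, on the same strand, GENCODE places 19 snoRNA genes: 3 in Ncl, 5 in Nop56, 4 in Nop58, 1 in Dkc1, 3 in Wdr43 and 3 in Gnl3. Of all protein-coding genes 1.19% hold a snoRNA gene in this way, and of those at 1 TPM or more 2.03%. Vertebrate snoRNAs are mostly cut from introns of such hosts, and known factors of ribosome production are frequent hosts. All 19 had 0 counts in both libraries. They are 68 to 133 bases long and lack poly(A) tails, and the labels give a size range above 175 for libraries of polyadenylated RNA, so these tables do not show how much snoRNA the cells made. The letters TGATGA within the first 20 bases, a form of box C, together with CTGA within the last 15, box D, stood in 8 of 19, against 20.2% of all 1507 annotated snoRNA genes. ACA 3 bases before the end, the H/ACA mark, stood in 2 of 19, against 18.0%. For each host, 1 example of each class found is printed, read 5′ to 3′ from the GENCODE transcript sequences on mm10, with these letters in capitals, since they show both guide classes inside genes of ribosome production.
Snord82, in Ncl, chr1:86356261-86356330, minus strand: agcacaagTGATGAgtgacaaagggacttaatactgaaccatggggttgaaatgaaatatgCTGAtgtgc
Snora75, in Ncl, chr1:86351169-86351301, minus strand: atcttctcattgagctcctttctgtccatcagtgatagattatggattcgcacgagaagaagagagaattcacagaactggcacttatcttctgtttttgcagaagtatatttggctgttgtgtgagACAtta
Snord110, in Nop56, chr2:130275506-130275573, plus strand: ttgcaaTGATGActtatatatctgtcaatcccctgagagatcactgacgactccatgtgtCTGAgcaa
Gm24451, in Nop56, chr2:130276237-130276369, plus strand: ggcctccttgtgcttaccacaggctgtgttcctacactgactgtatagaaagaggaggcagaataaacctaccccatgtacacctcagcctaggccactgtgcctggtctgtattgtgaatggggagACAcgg
Snord11, in Nop58, chr1:59704790-59704873, plus strand: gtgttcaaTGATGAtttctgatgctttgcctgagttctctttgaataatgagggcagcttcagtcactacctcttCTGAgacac
Snord92, in Wdr43, chr17:71631281-71631365, plus strand: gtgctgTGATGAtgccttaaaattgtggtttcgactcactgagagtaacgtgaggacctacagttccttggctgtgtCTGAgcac
Snord69, in Gnl3, chr14:31014287-31014366, minus strand: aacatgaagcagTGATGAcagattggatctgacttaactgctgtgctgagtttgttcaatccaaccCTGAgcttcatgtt
The first 5 lie in Ncl, Nop56 and Nop58, of which Nop56 and Nop58 encode box C/D proteins. Ncl and Nop56 each hold a snoRNA of either class. Other forms of the boxes were not searched.

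The 5 RNA polymerase I genes of the list split in 2 levels. The 3 subunits were moderate and close to each other. Polr1a, the largest subunit, had 17.8 TPM in replicate 1, against 25.6 in replicate 2. Polr1b, which forms the active centre with it, had 26.0 TPM in replicate 1, against 27.4 in replicate 2, a ratio to Polr1a of 1.46 in replicate 1 and 1.07 in replicate 2. Polr1c, shared with RNA polymerase III, had 16.6 TPM in replicate 1, against 28.6 in replicate 2, but coding TPM of only 5.11 in replicate 1 and 7.21 in replicate 2. The listed factors Ubtf and Tcof1 were higher than each of these 3 subunits in both libraries. This split of subunits and factors holds only within the list. Outside it, the subunit Polr1d had 164 TPM in replicate 1, against 174 in replicate 2. The promoter selectivity factor Taf1b had 1.49 TPM in replicate 1, against 1.01 in replicate 2. Ubtf, the upstream binding factor, had 263 TPM in replicate 1, against 185 in replicate 2, and coding TPM of 138 in replicate 1 and 141 in replicate 2. Tcof1, treacle, a partner of Ubtf whose loss causes a craniofacial syndrome in humans, had 190.0 TPM in replicate 1, against 237 in replicate 2. Ubtf exceeded Polr1a 14.8-fold in replicate 1 and 7.22-fold in replicate 2 by gene TPM, and 7.75-fold in replicate 1 and 5.49-fold in replicate 2 by coding TPM.

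The 10 small subunit factors had a median of 48.1 TPM, and 27.6 by coding TPM. Noc4l and Nop14 work as a pair in small subunit assembly, as known from yeast. Noc4l had 227 TPM in replicate 1, against 261 in replicate 2, and Nop14 had 44.2 TPM in replicate 1, against 38.3 in replicate 2. By gene TPM Noc4l exceeded Nop14 5.13-fold in replicate 1 and 6.81-fold in replicate 2. By coding TPM it was the lower of the pair, at 0.649 times Nop14 in replicate 1 and 0.655 times in replicate 2. Emg1, an rRNA methyltransferase, had 277 TPM in replicate 1, against 199.8 in replicate 2, with coding TPM of 6.82 in replicate 1 and 5.86 in replicate 2, the widest gap of the group. Imp3 and Imp4 belong to 1 complex on the U3 snoRNA. Imp3, a gene of a single exon, had 91.9 TPM in replicate 1, against 87.4 in replicate 2. Imp4 had 53.4 TPM in replicate 1, against 82.3 in replicate 2, and coding TPM of 10.9 in replicate 1 and 8.10 in replicate 2. The remaining small subunit factors had all or most of their TPM in coding models, apart from Wdr75. Wdr43, a subunit of the complex that binds the growing pre-rRNA, had 51.6 TPM in replicate 1, against 46.2 in replicate 2. Rrp12, an export factor in yeast, had 46.0 TPM in replicate 1, against 48.5 in replicate 2. Bms1, a GTPase, had 30.0 TPM in replicate 1, against 26.4 in replicate 2. These 3 differed by little between libraries. Ddx10, an RNA helicase, had 16.6 TPM in replicate 1, against 14.2 in replicate 2. Wdr75, which acts beside Wdr43, was at 5.98 TPM in replicate 1, against 23.9 in replicate 2, although its counts were 859 in replicate 1 and 671 in replicate 2. By coding TPM it was at 1.61 in replicate 1 and 22.4 in replicate 2.

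The PeBoW complex, named for Pes1, Bop1 and Wdr12, matures the large subunit. Its genes were far from equal. Bop1 had 135 TPM in replicate 1, against 134 in replicate 2, the smallest relative difference of the 3. Pes1 had 25.7 TPM in replicate 1, against 79.6 in replicate 2. Wdr12 had 5.73 TPM in replicate 1, against 3.73 in replicate 2. Bop1 exceeded Wdr12 23.6-fold in replicate 1 and 35.9-fold in replicate 2. The order Bop1, Pes1, Wdr12 was the same in both libraries, by gene TPM and by coding TPM.

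The other 9 large subunit factors had a median of 68.9 TPM and covered nearly the whole range of the list. Rrp1, a pre-rRNA processing factor, had 322 TPM in replicate 1, against 351 in replicate 2. Rrs1, which helps to bring ribosomal proteins into the large subunit in yeast, had 290.3 TPM in replicate 1, against 218 in replicate 2. These 2 were the high end. Nop16, an assembly factor known from yeast, had 102 TPM in replicate 1, against 78.6 in replicate 2. Nop2, an rRNA methyltransferase known as a proliferation antigen, had 49.8 TPM in replicate 1, against 105 in replicate 2. Noc2l, which also binds histones and inhibits their acetylation, had 64.2 TPM in replicate 1, against 73.5 in replicate 2. Nop16, Nop2 and Noc2l lay near the median of all factors. Ddx18, an RNA helicase, had 22.0 TPM in replicate 1, against 21.9 in replicate 2. Gnl3, nucleostemin, a GTP-binding nucleolar protein of stem and tumour cells, had 8.64 TPM in replicate 1, against 13.4 in replicate 2. Noc3l, whose yeast counterpart pairs with that of Noc2l, had 1.27 TPM in replicate 1, against 1.95 in replicate 2. Noc2l thus exceeded Noc3l 50.6-fold in replicate 1 and 37.7-fold in replicate 2, the widest ratio by gene TPM of the 20 pairs formed. By coding TPM, Nhp2 over Dkc1 in replicate 2 was wider, at 45.4-fold, and so was Bop1 over Wdr12 in that library, at 39.2-fold. Nip7, a late processing factor, was lowest of all 39 in the mean, at 1.40 TPM in replicate 1, against 1.53 in replicate 2. Those low values still rested on 242 counts in replicate 1 and 199 counts in replicate 2 for Nip7, and on 291 counts in replicate 1 and 336 counts in replicate 2 for Noc3l.

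Ranked by mean TPM, the list keeps its order only in part. Of 38 neighbouring pairs, 10 did not overlap in their library values. The first 4, Ncl, Fbl, Rrp9 and Rrp1, were each apart from the next. The 9 genes from Nhp2 to Gar1, with means between 254 and 167 TPM, each overlapped their neighbour within that run. At the low end, Dkc1, Wdr12 and the pair of Noc3l and Nip7 were apart from each other. Across the 39 genes the levels of the libraries had a Spearman correlation of 0.95, which describes genes that share libraries and are not independent. Together the factors took 0.823% of all counts in replicate 1 and 0.809% in replicate 2, and 0.791% of TPM in replicate 1 and 0.709% in replicate 2.

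Transcript models gave a second view of these genes, in which several of the most abundant ones rested on short models that are not classed as coding. The transcript tables listed 172 models for the 39 genes. Of the genes, 16 had 1 model and 20 had all their TPM in coding models. In 6 genes under 50% of TPM lay in coding models in both libraries, against 17.2% of detected coding genes. All 6 are among the 23 factors with several models, and 22.6% of detected coding genes with several models were below 50%. These shares are near the background and are not a result about the list. By counts, which do not weigh short models up, 3 of 39 were below 50% in both libraries, Ncl, Emg1 and Noc4l, against 10.3% of detected coding genes and 13.5% of those with several models.

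**Figure D2:**
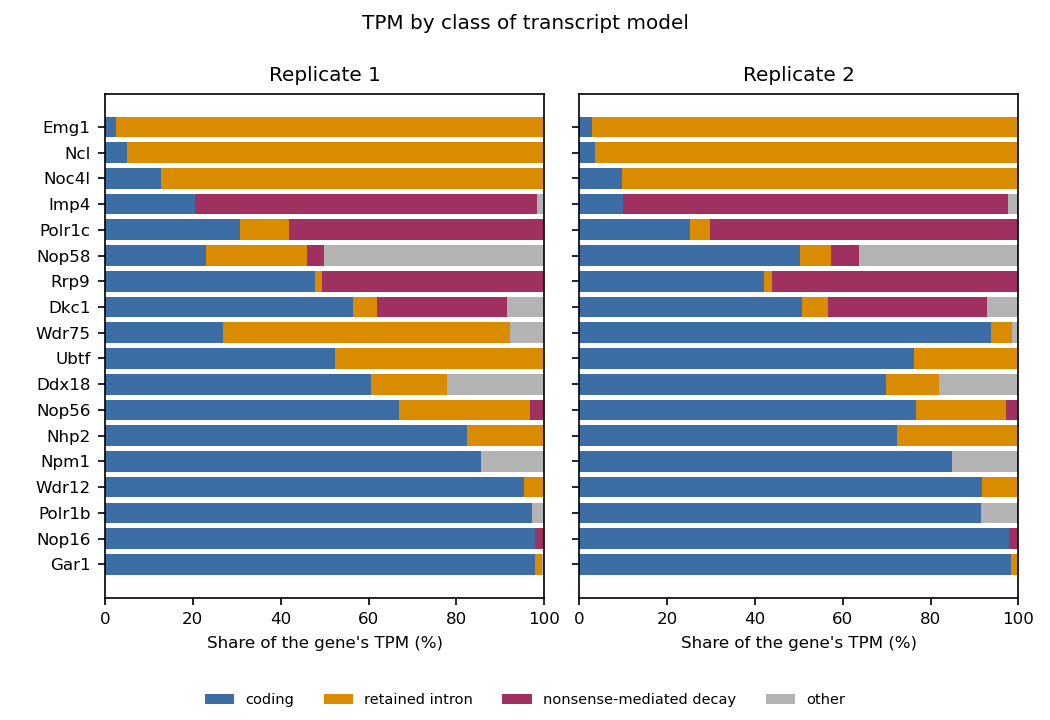
Share of gene TPM in percent by GENCODE class of transcript model, for the 18 factors with TPM outside coding models that the plot shows, in replicate 1 (left) and replicate 2 (right). Emg1, Ncl and Noc4l were mostly in models classed as retained intron, Imp4, Polr1c and Rrp9 mostly or about equally in models classed as nonsense-mediated decay, and Wdr75 differed between libraries.

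In Ncl, coding models held 4.93% of TPM in replicate 1 and 3.66% in replicate 2. A single model, Ncl-205, classed as retained intron, held 91.2% of TPM in replicate 1 and 90.4% in replicate 2. It is 601 bases long, has 2 exons and lies at chr1:86350496-86351211 on the minus strand of mm10. It took 72599 counts in replicate 1 and 41628 counts in replicate 2, so more of the gene's reads than any other model. Of its bases, 29.3% lie outside the exons of coding models. Its 3′ end lies 1 base from that of Ncl-202 and 5777 bases before that of the full coding model Ncl-201, which is 8202 bases long. Ncl-202 and Ncl-205, which share this end, held 83.7% of Ncl counts in replicate 1 and 90.3% in replicate 2. Most Ncl reads were thus given to models that stop at the inner end. The coding models Ncl-201 and Ncl-203 do not end there, so the coding TPM of Ncl leaves these reads out. Its place below Npm1 by coding TPM depends on that. The tables do not say whether the intron part of these models was read, and the class of a model does not show that an intron was retained.

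Emg1 and Noc4l showed the same class with even fewer bases to tell models apart. Emg1-204, of 917 bases, held 96.4% of TPM in replicate 1 and 96.5% in replicate 2, with 12188 counts in replicate 1 and 6678 counts in replicate 2, and 7.52% of its bases lie outside coding exons. The 3′ end of Emg1 overlaps an exon of Lpcat3 on the other strand, which had 13148 counts in replicate 1 and 8442 counts in replicate 2. Lpcat3 ends at position 124704418 and Emg1-204 lies beyond it, at chr6:124704458-124712069. Noc4l-205, of 665 bases, held 45.5% of TPM in replicate 1 and 38.1% in replicate 2, with 6.32% of its bases outside coding exons, and other Noc4l models of this class held most of the rest. In all 3 genes the coding share was low in both libraries.

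Models classed as targets of nonsense-mediated decay, a pathway that removes transcripts with early stop codons, led in 3 genes. Rrp9-207, of 482 bases, held 50.7% of Rrp9 TPM in replicate 1 and 56.1% in replicate 2. Polr1c-206, of 432 bases, held 58.1% in replicate 1 and 70.3% in replicate 2. Neither has a base outside the exons of coding models, so only their junctions and ends differ from those. Imp4-205, of 658 bases, held 62.2% of Imp4 TPM in replicate 1 and 43.2% in replicate 2, with 16.9% of its bases outside coding exons. By counts the coding models led in Rrp9, with 78.8% in replicate 1 and 74.2% in replicate 2, and in Polr1c, with 60.9% in replicate 1 and 55.8% in replicate 2. In Imp4 the coding models held 71.9% of counts in replicate 1 and 49.9% in replicate 2.

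The leading model was the same in both libraries for 35 of 39 genes and for 19 of the 23 with several models, against 83.2% of detected coding genes with several models. The other 4 changed model between libraries. In Tcof1, Tcof1-204 led with 75.0% in replicate 1, where Tcof1-202 had 22.1%. In replicate 2, Tcof1-202 led with 64.4% and Tcof1-204 had 32.7%. Both are coding, of 4529 and 4595 bases, and differ by 1 exon, 25 against 26. In Npm1, Npm1-204 led with 55.8% in replicate 1 and Npm1-203 with 43.9% in replicate 2, both coding. In Nop56, Nop56-209 led with 25.9% in replicate 1 and Nop56-201 with 49.8% in replicate 2. Wdr75 was the widest case: Wdr75-207, of 3226 bases and classed as retained intron, led with 46.8% in replicate 1, and Wdr75-206, a coding model of 468 bases, led with 84.6% in replicate 2. Wdr75-206 had 0 counts in replicate 1 and 292 counts in replicate 2. That short model alone gave 20.2 of the 23.9 TPM of Wdr75 in replicate 2, while the counts of the gene had a TMM-scaled log2 ratio, replicate 1 over replicate 2, of -0.16.

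In 2 further genes a short model outside the coding class moved between libraries. Ubtf-212, of 480 bases, held 47.1% of Ubtf TPM in replicate 1 and 21.7% in replicate 2. Nop58-214, of 576 bases, held 50.1% of Nop58 TPM in replicate 1 and 36.2% in replicate 2, and its exons contain the snoRNA gene Gm26293. The coding TPM of Ubtf differed less between libraries than its gene TPM.

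The libraries were next compared factor by factor, as log2 ratios of counts of replicate 1 over replicate 2 after TMM scaling, which sets the bulk of genes equal. Intervals are exact 95% Clopper-Pearson intervals and cover counting error only. Of the 39 factors, 0 were at least 2-fold higher in replicate 1, against 2.00% of the 10863 genes tested, and 3 were at least 2-fold higher in replicate 2, against 7.73%. Both counts are near the background and are not a result about the list. The factors' log2 ratios had an SD of 0.54, against 0.72 for all genes tested, and a median of -0.14, against 0.01. All 39 factors averaged at least 100 counts, while the genes tested began at 10, so the SDs are not at like depth. Of the factors, 16 were higher in replicate 1 and 23 in replicate 2 after TMM scaling, and 19 and 20 when library totals were used, which shift every log2 ratio by 0.11.

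**Figure D3:**
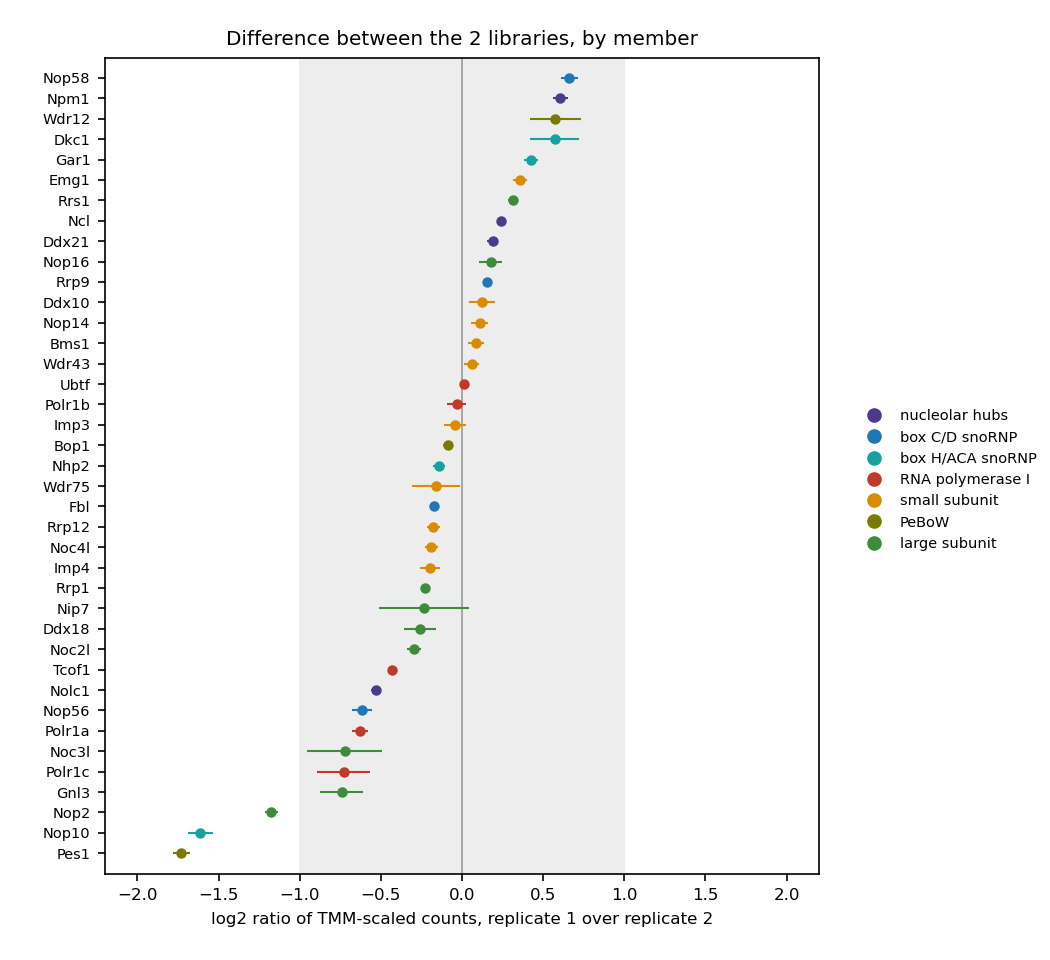
Log2 ratio of TMM-scaled counts, replicate 1 over replicate 2, for each of the 39 factors, coloured by role, with exact 95% counting intervals as bars and the range within 2-fold shaded. Pes1, Nop10 and Nop2 lie outside the shaded range on the side of replicate 2, and no factor lies outside it on the side of replicate 1.

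Pes1 differed most. It had 4265 counts in replicate 1 and 9897 counts in replicate 2, a log2 ratio of -1.73 (interval -1.78 to -1.68), or 3.32-fold higher in replicate 2. Its single leading model held all or nearly all of its TPM in both libraries, so no change of model went with it. Nop10 had 2055 counts in replicate 1 and 4396 counts in replicate 2, a log2 ratio of -1.61 (interval -1.69 to -1.54). Nop2 had 7387 counts in replicate 1 and 11665 counts in replicate 2, a log2 ratio of -1.17 (interval -1.22 to -1.13). These 3 genes lie on chromosomes 11, 2 and 6 and belong to different complexes. At 1.5-fold there were 2 factors on the side of replicate 1, against 7.40% of genes tested, and 8 on that of replicate 2, against 16.0%. Pes1, Nop10 and Nop2 were past 2-fold under each of TMM, library totals, TPM, coding TPM and posterior mean counts, and TPM and coding TPM added Wdr75 to them. Counting error is small beside these differences. Over the 10863 genes tested, edgeR put the relative spread between the libraries beyond counting error (common biological coefficient of variation) at 0.30. That value comes from the same 2 libraries, so these differences have no replicate check.

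In the other direction the widest ratios were those of Nop58, at 0.66 (interval 0.61 to 0.72), and Npm1, at 0.61 (interval 0.56 to 0.65), on the log2 scale. The direction of Nop58 turns with the models counted: by coding TPM it was lower in replicate 1, at 56.0 against 70.8 in replicate 2, and coding models held 47.2% of its counts in replicate 1 and 68.0% in replicate 2. Dkc1 and Wdr12 followed with 0.57 and 0.58, from counts of 1127 and 1065 in replicate 1 and of 531 and 500.0 in replicate 2. In 4 of 39 factors the counting interval spanned 0. Partners of 1 complex did not move as 1: in PeBoW the log2 ratio was -1.73 for Pes1, -0.09 for Bop1 and 0.58 for Wdr12, and in box H/ACA it was -1.61 for Nop10, -0.14 for Nhp2, 0.43 for Gar1 and 0.57 for Dkc1. The RNA polymerase I genes ranged from -0.73 for Polr1c to 0.01 for Ubtf.

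Some of these values could include reads from copies elsewhere in the genome. In 10 of 39 factors over 10% of the stretches of 31 bases in their transcripts also occur in another gene, mostly processed pseudogenes: Ddx18 with 65.5%, Pes1 with 34.8%, Npm1 with 29.4%, and Nop56, Fbl, Noc2l, Imp3, Rrs1, Wdr12 and Nip7 with less. Of detected coding genes, 23.7% passed the same limit. For Noc2l the other gene is Samd11, which overlaps it on the other strand. How reads were divided among copies is not stated. For Nop10 and Nop2 the shares were 5.19% and 3.39%. The part of shared sequence in the differences between libraries was not tested. The gene that shares most with Fbl, Tulp4, is protein coding and holds 21.3% of its stretches. Tulp4 had 3193 counts in replicate 1 and 2657 counts in replicate 2. Protein-coding genes also share most with Wdr12 (Vmn1r88) and Nip7 (Mrpl13). The pseudogene most like Fbl, Gm5812, was given 516 counts in replicate 1 and 686 counts in replicate 2. Those of Gm5812 are few beside the 51400 and 40607 counts of Fbl. Of the pseudogenes like Pes1, Gm5472 was given 1.00 count in replicate 1 and 13.1 counts in replicate 2, and Gm5910, which shares more, was not analysed here. In 14 of 39 factors an exon overlaps an exon of a gene on the other strand, against 33.6% of detected coding genes, among them Bop1 with Mroh1, Nop56 with Idh3b, Gnl3 with Pbrm1 and Nhp2 with Rmnd5b. Whether counting used the strand is not stated.

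The starts of the 3 genes that differed most between libraries are printed as examples, picked by the ratios above. That all 3 were higher in replicate 2 is not a result about them. Of the 10863 genes tested, 840 were at least 2-fold higher in replicate 2 and 217 in replicate 1. The printed windows cover 250 bases before to 50 bases after the start, from RefSeq on GRCm38.p6 (the mm10 assembly), 5′ to 3′. Capitals mark CACGTG, the E-box that MYC and MAX are known to bind at many ribosome biogenesis genes. The motif reads the same on both strands. Its part in the differences between libraries was not tested.
Pes1, chr11:3963725-3964024, plus strand: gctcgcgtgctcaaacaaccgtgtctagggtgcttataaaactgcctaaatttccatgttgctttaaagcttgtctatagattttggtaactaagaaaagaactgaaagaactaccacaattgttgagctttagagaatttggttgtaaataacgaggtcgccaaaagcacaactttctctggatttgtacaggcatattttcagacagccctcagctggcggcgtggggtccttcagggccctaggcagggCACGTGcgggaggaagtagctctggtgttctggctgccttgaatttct
Nop10, chr2:112261676-112261975, plus strand: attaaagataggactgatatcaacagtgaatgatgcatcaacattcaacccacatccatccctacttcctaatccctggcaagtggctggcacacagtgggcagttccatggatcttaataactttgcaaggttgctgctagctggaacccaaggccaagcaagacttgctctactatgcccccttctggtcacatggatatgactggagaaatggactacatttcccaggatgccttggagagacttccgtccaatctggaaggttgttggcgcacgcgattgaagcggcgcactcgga
Nop2, chr6:125131633-125131932, plus strand: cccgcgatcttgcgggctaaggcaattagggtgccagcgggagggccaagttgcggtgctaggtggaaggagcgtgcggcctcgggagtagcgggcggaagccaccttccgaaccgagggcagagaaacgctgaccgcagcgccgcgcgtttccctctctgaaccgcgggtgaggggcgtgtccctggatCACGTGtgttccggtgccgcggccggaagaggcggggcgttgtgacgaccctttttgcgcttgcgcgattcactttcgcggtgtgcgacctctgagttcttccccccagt
Pes1 holds the motif 2 bases after the start and Nop2 60 bases before it, and the Nop10 window does not hold these letters. RefSeq windows were found for 33 of 39 factors, 41 windows in all. The motif stood in 4 of the 41, in Pes1, Nop2, Imp4 and Wdr43, or 9.76%. Of all 32851 RefSeq windows, 7.15% held it, and of those of detected coding genes 10.9%. In the 250 bases before the start alone, 2 of the 41 windows held it, or 4.88%, against 6.02% of all windows and 9.11% of those of detected coding genes. Either way these are few windows, and no difference from other genes is read from them. Among the 4 genes with the motif, Wdr43 had a log2 ratio of 0.06 and Imp4 of -0.20.

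Level and base composition went together in this list, as they did among all genes. The Spearman correlation of GC content (of the longest coding transcript) with TPM across the 39 factors was 0.50 in replicate 1 and 0.536 in replicate 2. Across the 9845 coding genes whose counts averaged 10 or more it was 0.291 in replicate 1 and 0.315 in replicate 2. These describe genes of the same libraries, which are not independent. The 13 factors lowest in GC, 40.4 to 46.5%, had a median of 16.6 TPM in replicate 1, against 23.9 in replicate 2. The middle 13, 47.6 to 54.1%, had a median of 44.2 TPM in replicate 1, against 78.6 in replicate 2. The highest 13, 54.1 to 59.8%, had a median of 199 TPM in replicate 1, against 218 in replicate 2. By coding TPM the lowest and the middle 13 lay close: the median was 16.6 and 25.7 in replicate 1, and 22.4 and 26.4 in replicate 2. The highest 13 stood above both, at 189 in replicate 1 and 134 in replicate 2. Some gaps within complexes ran the same way: Dkc1 (43.6% GC) was below Nhp2 (54.1%) and Gar1 (57.0%), Wdr12 (40.4%) below Bop1 (58.2%), and Noc3l (43.7%) below Noc2l (56.0%). By gene TPM the gap between Nop58 (41.0%) and Nop56 (50.4%) did not. Nop58 stood 4.36-fold above Nop56 in replicate 1 and 1.45-fold above it in replicate 2. By coding TPM Nop58 was above Nop56 in replicate 1 and below it in replicate 2. Ncl (42.8%) and Npm1 (42.4%) had nearly the same GC. Ncl stood above Npm1 by gene TPM and below it by coding TPM in both libraries. The part of base composition in these gaps was not tested.

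**Figure D4:**
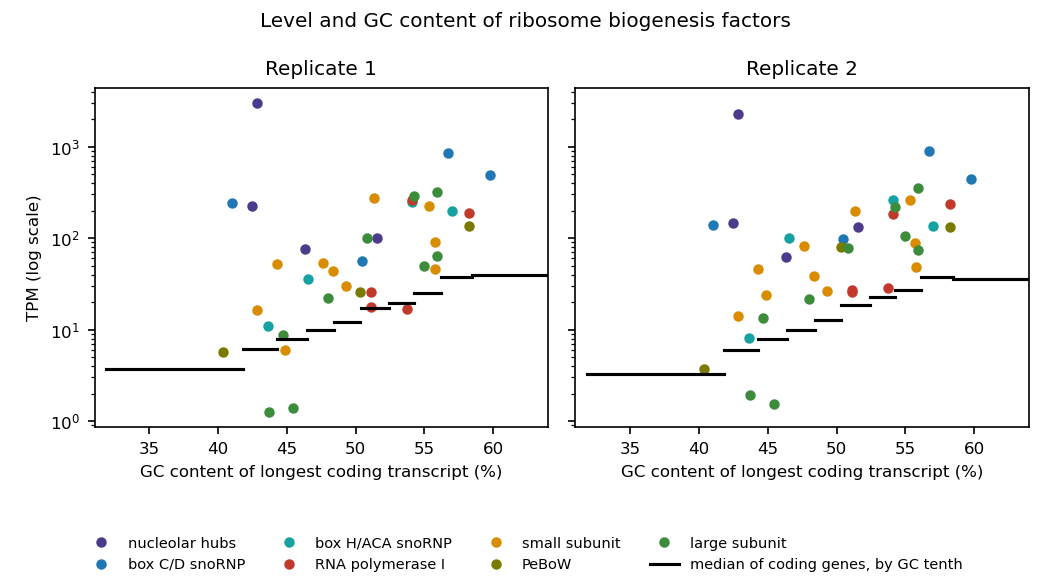
TPM on a log scale against GC content of the longest coding transcript in percent, for the 39 factors coloured by role, in replicate 1 (left) and replicate 2 (right), with the median of coding genes in each of 10 GC bins as black lines. Levels are higher at higher GC in both libraries (Spearman correlations of 0.50 and 0.536), and Ncl, Nop58 and Npm1 stand high at low GC.

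The rest of the pathway, from lists of genes with known roles, was lower on the whole than the 39 factors. Of 125 other pathway genes found, 124 were at 1 TPM or more in both libraries, 82 at 10 TPM or more, and their median was 25.0 TPM. By coding TPM the median was 56.0 for the 39 factors and 18.4 for these genes. The 12 other RNA polymerase I genes had the lowest median, 7.62 TPM. Polr1d, a subunit shared with RNA polymerase III, had 164 TPM in replicate 1, against 174 in replicate 2, and Cd3eap, a subunit of the polymerase, had 107 TPM in replicate 1, against 76.8 in replicate 2. The promoter selectivity factors Taf1b, at a mean of 1.25 TPM, and Taf1a, at 1.02 TPM, were lowest, and Taf1a was the gene below 1 TPM in a library.

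The 43 other small subunit factors had a median of 26.0 TPM, between Mybbp1a at 245 TPM and Ddx52 at 1.67 TPM in the mean. Bud23, an rRNA methyltransferase, was second at 209.6 TPM, and Nol11 next to last at 1.92 TPM. The 43 other large subunit factors had a median of 28.0 TPM, with Nop53 at 649.6 TPM and Ppan at 499 TPM on top, and Urb2 at 3.22 TPM and Nvl at 2.73 TPM at the bottom. The 10 partners and assembly factors of snoRNPs had a median of 30.2 TPM. Ruvbl2, an ATPase of snoRNP assembly, led them at 569 TPM, and Tgs1, which modifies snoRNA caps, and Znhit3 were lowest at 2.38 and 1.52 TPM. The 17 exosome and rRNA nuclease genes had a median of 25.0 TPM, from Exosc5 at 666 TPM and Rexo4 at 138 TPM to Exosc9 at 1.94 TPM and Mtrex, the exosome's helicase, at 1.86 TPM. The 78 ribosomal protein genes stood well above all of these, with a median of 703 TPM, from 7.04 TPM for Rps15a to 26786 TPM for Rplp1. Ribosomal protein genes have many processed pseudogenes, so single values among them are uncertain.

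**Figure D5:**
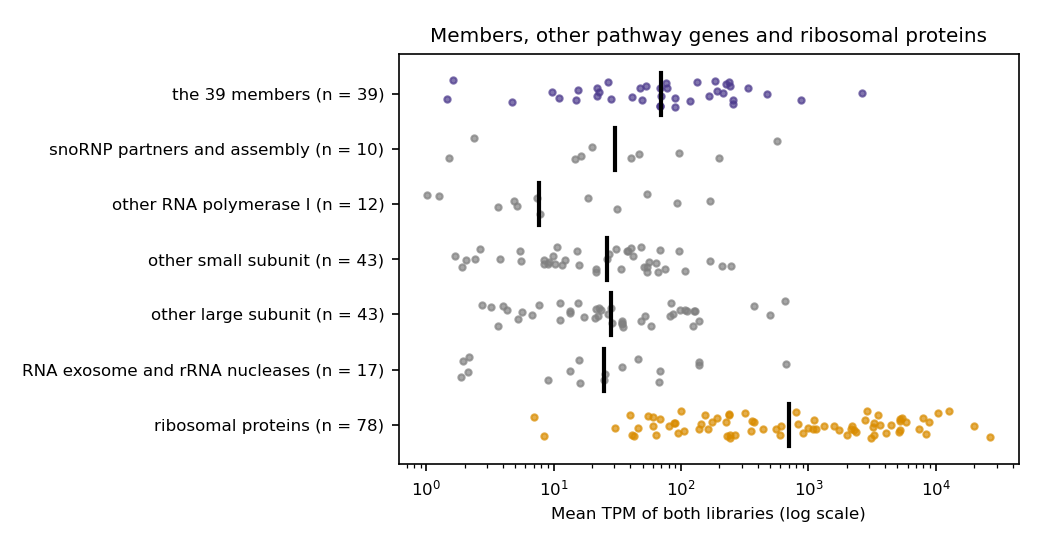
Mean TPM of both libraries on a log scale for the 39 factors, 5 lists of other ribosome biogenesis genes and the ribosomal proteins, 1 point per gene, with the median of each list as a black bar. The factors' median of 69.5 TPM lies above that of each other biogenesis list and below the 703 TPM of ribosomal proteins.

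Past 2-fold between libraries were 1 of the 125 other pathway genes on the side of replicate 1 and 14 on that of replicate 2, against the backgrounds of 2.00% and 7.73% given above. Of 78 ribosomal protein genes, 0 were past 2-fold on the side of replicate 1 and 20 on that of replicate 2. Snu13, the box C/D protein that first binds the snoRNA and so the partner of Fbl, Nop56 and Nop58, differed far more than any of these 3. It had 33.7 TPM in replicate 1, against 361 in replicate 2, with 2264 counts in replicate 1 and 18069 counts in replicate 2 and a log2 ratio of -3.51. Of its 3 partners, Fbl had a log2 ratio of -0.17, Nop56 of -0.62 and Nop58 of 0.66.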

How the data were processed

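RNA-seq of 2 libraries of E2-treated G1E-ER4 cells was analysed from 1 gene table and 1 transcript table per library, on mm10 with GENCODE M4 per the deposited readme files; for the aligner and quantifier no source used here gives a name. Deposited by the authors were estimated counts (expected and posterior mean), TPM, FPKM and the percent of a gene's TPM per transcript model, per the file headers. Gene names, model classes and positions came from GENCODE M21. The 43346 Ensembl genes were used, and other rows held 0 counts in replicate 1 and 1 count in replicate 2.

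The depth of 68901065 counts in replicate 1 and 51923117 in replicate 2 sets the counting intervals. Expected counts were rounded to whole numbers and scaled by TMM in edgeR 4.0.16 (R 4.3.3) over the 10863 genes averaging 10 or more counts, and a gene was called at 2-fold. Exact 95% Clopper-Pearson intervals (scipy 1.17.1) cover counting error only. With 1 group there is no test, and DESeq2 1.42.0 gave only alternative size factors. The ratio step was tested on simulated data with a narrower spread than that of these libraries, so that test does not show how it performs at theirs. The 2 libraries are biological replicates by their labels.

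The members and lists were chosen with earlier results of these data known. Named were all 39 members, the 2 highest and 2 lowest genes of each pathway list (1 each for ribosomal proteins), and genes whose sequence or position overlaps a member. Of the listed pathway genes, 2 were not matched. Leading transcript means the model with the highest percent. Stretches of 31 bases were compared among all GENCODE transcripts, and RefSeq promoters were searched for CACGTG.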

Additional observations from a re-analysis of the deposited data

How the results depend on the processing

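All 39 factors were detected at minimums of 1 and 0.1 TPM, at 1 FPKM, by posterior mean TPM, by coding TPM and without either library, and 33 of 39 at 10 TPM. Of the other pathway genes 124 were detected at 1 TPM, 82 at 10 TPM, and 124 to 125 without 1 library. The median level of the factors, 69.5 TPM, was 89.3 when ribosomal protein, globin and mitochondrial genes were left out of the scaling and 126 as counts scaled to library total alone (CPM), not divided by length; without replicate 1 it was 82.3 TPM, and without replicate 2 it was 55.8 TPM. At 1.5-fold, 2 factors were higher in replicate 1 and 8 in replicate 2, against 7.40% and 16.0% of genes tested. In the 250 bases before the start alone, 2 windows of the factors held CACGTG, or 4.88%, against 9.11% for detected coding genes. By coding TPM, an alternative added after the data were seen, the level of 12 of 39 factors moved by more than the spread of the libraries. By library totals the ratio of 32 of 39 factors left its counting interval, and by TPM as deposited that of 29. By DESeq2 size factors and by posterior mean counts all 39 stayed within it. Leaving out a library leaves no ratio, so that alternative was not run for the ratios. No paired analysis was possible because there is 1 group. With 2 libraries, depth sets counting error. The spread beyond it was estimated only as 1 coefficient of variation common to the genes tested, 0.30.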
